A study of Rattus norvegicus with 105 samples.

Results

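Rifampin, an ansamycin antibiotic, was applied at 20 µM and at 40 µM to cultured rat hepatocytes, and the libraries described here were those whose labels name rifampin. There were 6 of them, 3 at each concentration, among 105 libraries in the series. The cells were primary hepatocytes of female Sprague-Dawley rats from a single commercial lot, plated on collagen in 96-well plates and exposed for 24 hours. Because all wells came from that lot, replicates were wells and not animals, and every p-value below measures the spread between wells. The rifampin wells were set against 3 wells with DMSO, the solvent control, and against 3 wells with medium alone. The 20 µM wells were also set against 3 wells with CITCO at 20 µM, a compound known as an agonist of the human constitutive androstane receptor. The solvent is titled 0.5 in the sample labels and 0.2% in the protocol text, and the labels do not say whether the rifampin wells held DMSO. On the plate, medium occupied columns 10 to 12 of row A, DMSO those of row B and rifampin at 20 µM those of row E. Rifampin at 40 µM occupied columns 1 to 3 of row H and CITCO at 20 µM those of row G, so that concentration of rifampin and place on the plate cannot be told apart. RNA was measured with TempO-Seq, a targeted assay that counts ligated pairs of detector oligonucleotides annealed side by side on a transcript.

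Rifampin is known as a ligand of the pregnane X receptor (PXR, encoded by Nr1i2), a nuclear receptor of liver and intestine that pairs with the retinoid X receptor and switches on drug-metabolizing genes, foremost those of the CYP3A family. The receptor's ligand pocket differs between species: rifampin activates the human receptor strongly and the rat receptor poorly, whereas pregnenolone 16α-carbonitrile activates the rodent one. The constitutive androstane receptor (CAR, encoded by Nr1i3) shares many targets with PXR and is best known for the CYP2B genes. The question was whether the rat cells answered rifampin at the genes of this pathway. Both controls were used for it, because the solvent content of the rifampin wells is not given.

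PXR is known to bind, among other elements, direct repeats of the hexamer AGGTCA or AGTTCA with 3 bases between them. Promoter sequences from RefSeq (rat build GRCr8, 250 bases before to 50 bases after each gene's start) were searched for that repeat on both strands. Cyp3a9, the only Cyp3a symbol with a probe in the table, can then be set beside 2 other rat Cyp3a genes, which were shown because they hold the repeat. The stretches are shown 5′ to 3′ on the gene's strand, which is the minus strand in all 3, with the hexamers in capitals, written TGAACT where they lie on the opposite strand.
Cyp3a2, chr12:14343966-14343996: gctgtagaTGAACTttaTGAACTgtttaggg
Cyp3a23-3a1, chr12:14398925-14398955: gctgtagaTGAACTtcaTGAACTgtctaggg
Cyp3a9, chr12:21960216-21960245: ccattggctacaAGTTCAgccccacctcct
The repeat starts 131 bases before the start of Cyp3a2 and 144 bases before that of Cyp3a23-3a1, and it was found in 14 of 33469 promoters (0.0418%). The Cyp3a9 window held no such repeat and a single AGTTCA, 73 bases before the start; a hexamer of this kind alone was found in 27.9% of promoters. The windows of Cyp3a62 and Cyp3a18 also held no such repeat, and 1 and 2 hexamers. Those of Cyp2b1, Cyp2b2 and Cyp2b3 held no hexamer. In all, 8 classes of motif were searched over 32 genes that had a promoter in the table, of 42 looked up, and those shown were chosen after the expression values were seen. Besides the repeat, the hexamer and the metal response core given below, these were direct repeats of the same hexamers spaced by 1 and by 4, everted repeats of TGACCT or TGAACT with AGGTCA or AGTTCA spaced by 6 and by 8, and the CArG box. A match or its absence describes the letters of the window only.

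The 12 libraries of the DMSO, medium and rifampin wells held 6809360 to 9125906 counts, so that 3 counts, the floor of detection, corresponded to 0.329 to 0.441 CPM, the unit of all levels below. A CPM value is a probe's count over the library's total, put on one scale. A probe's level depends on its detector, so levels were compared between wells and not between genes. Intervals of counting error do not cover the spread between wells. Albumin (Alb), the secreted protein that defines hepatocytes, stood at 1912 to 2661 CPM in the 6 rifampin wells. Markers of other liver cells ranged from near the floor to well above it. The 10 endothelial probes summed to at most 2.05 CPM per well in any of the 4 groups, and the macrophage probes Adgre1, Clec4f and Marco each had a probe at 0 in every well of these groups. Levels of the 14 Kupffer cell and macrophage probes summed to 42.9 to 55.3 CPM with rifampin, 40.5 to 47.1 with DMSO and 53.2 to 65.4 with medium. The 12 cholangiocyte probes summed to 1065 to 1257 CPM with rifampin, 835 to 987 with DMSO and 999 to 1136 with medium. The 12 stellate cell probes summed to 232 to 377 CPM with rifampin, 400.5 to 415 with DMSO and 333.5 to 382 with medium, nearly all of it Reln, while Pdgfrb, Hhip and Col1a1 were at 0 in all 4 groups. The part of these differences in the results below was not tested.

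For the mean of both rifampin concentrations, no probe of the PXR and CAR target lists passed the test for a level above the solvent. Cyp3a9, a testosterone-hydroxylating cytochrome P450 and the only probe with a Cyp3a symbol, was lower at 40 µM than in either control. Members of these lists were found by symbol. Symbols without a match in the rat gene list were not resolved, so a target under another name would be missed. Cyp2b2, Cyp2b3 and Cyp2c6v1 were lower than with DMSO. Higher than with DMSO were 0 of 11 phase I, 0 of 22 phase II and 0 of 7 transporter probes tested. Higher than with medium were 2 phase I and 1 phase II probes. Across all 12102 probes tested, the mean of both rifampin groups differed from DMSO for 420 (3.47%), of which 139 were higher (1.15%) and 281 lower (2.32%), at an adjusted p under 0.05 in edgeR's quasi-likelihood test; a probe past that threshold is referred to as called. Against medium 231 were called (1.91%), 105 higher (0.868%) and 126 lower (1.04%). At 20 µM alone 347 were called against DMSO (2.87%), 133 higher (1.1%) and 214 lower (1.77%), and 33 against medium (0.273%), 20 higher (0.165%) and 13 lower (0.107%). At 40 µM alone 204 were called against DMSO (1.69%), 66 higher (0.545%) and 138 lower (1.14%), and 401 against medium (3.31%), 173 higher (1.43%) and 228 lower (1.88%). The comparisons at the 2 concentrations share their control wells, so their calls are not independent of each other. Medium and DMSO themselves differed at 855 probes (7.06%), more than rifampin did from either; medium was higher at 386 (3.19%) and lower at 469 (3.88%).

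Cyp3a9 stood at 15.6, 15.2 and 14.8 CPM with DMSO and at 22.0, 23.8 and 24.9 CPM with medium. With rifampin it stood at 12.5, 15.1 and 14.8 CPM at 20 µM and at 6.90, 11.6 and 8.999 CPM at 40 µM. The 40 µM wells lay below every control well, while the 20 µM wells overlapped those of DMSO and lay below those of medium. The log2 difference from DMSO was -0.15 ± 0.16 (SE) at 20 µM (adjusted p = 0.827) and -0.80 ± 0.17 at 40 µM (adjusted p = 0.00812), with n = 3 wells a group. Against medium it was -0.74 ± 0.16 at 20 µM (adjusted p = 0.0282) and -1.38 ± 0.17 at 40 µM (adjusted p = 7.62e-06). The call at 40 µM against DMSO was lost without the first 40 µM well, which lay in the plate corner (adjusted p = 0.0911), whereas that against medium was kept in all 12 alternative settings; the call at 20 µM against medium was lost when any single well of either group was left out (largest adjusted p = 0.213). The difference between the concentrations, -0.64 ± 0.17, did not pass the test (adjusted p = 0.192). Cyp2b1, the phenobarbital-inducible P450 that marks CAR activity in rat liver, was at 0 in all 3 wells at 20 µM and at 0, 0.329 and 0 CPM at 40 µM. The control wells lay between 0 and 0.251 CPM, so the gene was at or under the floor in every one of these wells and no fold change is given.

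**Figure D1:**
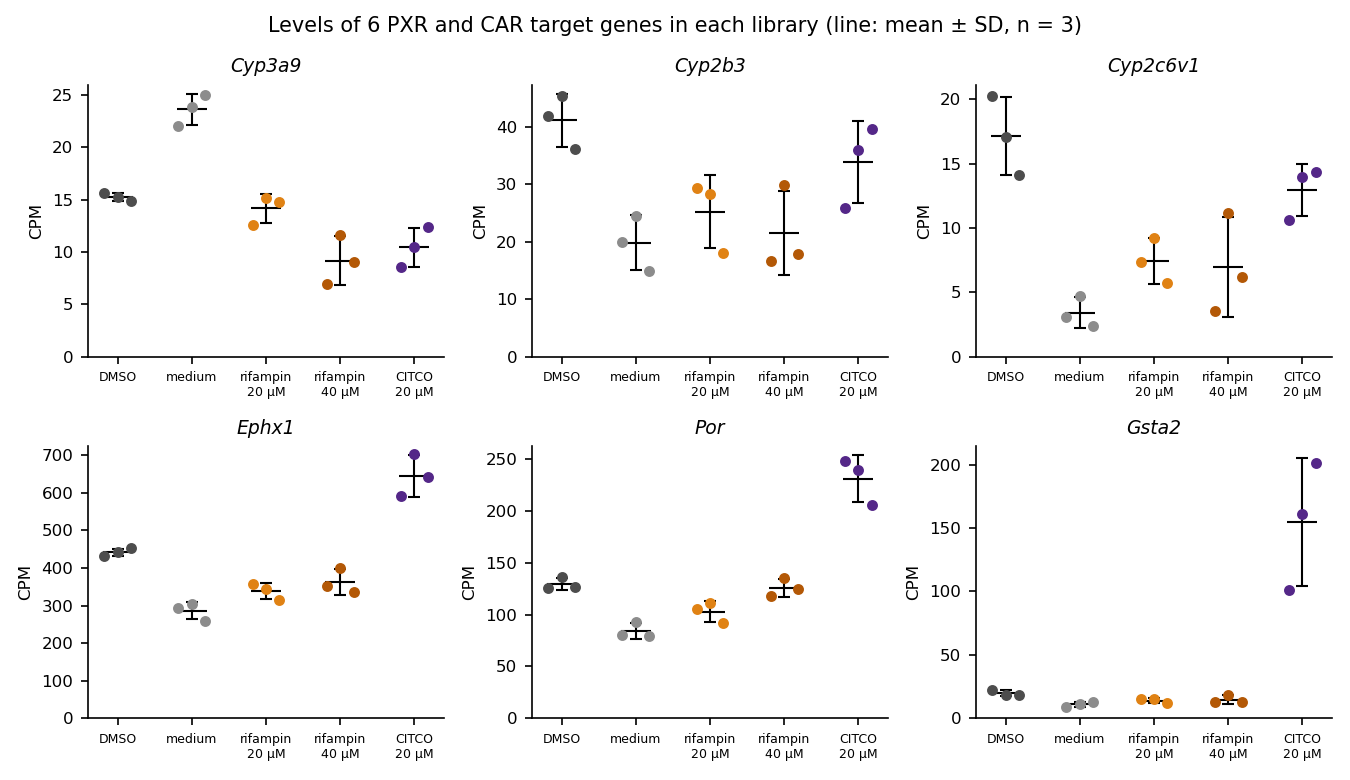
Levels (CPM, linear axes from 0) of 6 genes examined as PXR and CAR targets in each well of 5 groups. Points are wells and lines the mean ± SD of 3. Cyp3a9 at 40 µM rifampin lies below every DMSO and medium well, and for Ephx1, Por and Gsta2 every rifampin well lies below every CITCO well.

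The remaining P450s of the phase I list were below the solvent. Cyp2c6v1, a drug-oxidizing P450 of the CYP2C family, stood at 20.3, 17.1 and 14.2 CPM with DMSO, at 7.39, 9.25 and 5.70 CPM at 20 µM, and at 3.53, 11.2 and 6.19 CPM at 40 µM. All 6 rifampin wells lay below the 3 DMSO wells, and the medium wells, at 3.13, 4.76 and 2.39 CPM, were lower still on average. The mean of both concentrations was lower than DMSO by a log2 value of -1.30 ± 0.25 (adjusted p = 0.00279) and above medium by 1.07 ± 0.31, which was not called (adjusted p = 0.0783). Cyp2b3, a CYP2B member of rat liver, stood at 41.9, 45.4 and 36.2 CPM with DMSO, 29.4, 28.3 and 18.03 CPM at 20 µM and 16.7, 29.9 and 17.9 CPM at 40 µM. Here too every rifampin well was below every DMSO well, and the rifampin wells overlapped those of medium, at 20.1, 24.6 and 14.9 CPM. Its log2 difference was -0.88 ± 0.19 from DMSO (adjusted p = 0.00788) and 0.22 ± 0.20 from medium (adjusted p = 0.716), and the first was lost without the first or second DMSO well (largest adjusted p = 0.0635). Cyp2b2, the close paralog of Cyp2b1 with which detectors may share signal, averaged 8.28 CPM with DMSO, 2.02 with medium, 3.89 at 20 µM and 2.36 at 40 µM, and its difference from DMSO was -1.47 ± 0.33 (adjusted p = 0.012; 0.131 without the second DMSO well).

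Among other members of the phase I list, Ephx1 and Por also averaged below DMSO and above medium. Ephx1, microsomal epoxide hydrolase, stood at 433, 441 and 452 CPM with DMSO, 358, 344 and 314 CPM at 20 µM, 351, 401 and 337 CPM at 40 µM, and 293, 304 and 260 CPM with medium. The 6 rifampin wells lay between the 2 controls without overlapping either, and the log2 difference was -0.40 ± 0.08 from DMSO (adjusted p = 0.00304) and 0.27 ± 0.08 from medium (adjusted p = 0.0875). Por, the reductase that hands electrons to all microsomal P450s, stood at 126, 136 and 127 CPM with DMSO, 80.1, 92.6 and 79.0 CPM with medium, 106, 111 and 91.6 CPM at 20 µM and 118, 135 and 124 CPM at 40 µM. Its 40 µM wells overlapped those of DMSO and exceeded those of medium by 0.55 ± 0.09 (adjusted p = 0.000664). Of the 27 genes in the phase I list, 17 probes were in the table and 11 were tested. Against DMSO 0 were higher and 6 lower (Cyp2b2, Cyp2c6v1, Cyp2b3, Ces2h, Ephx1 and Alas1), with a median log2 difference of -0.47 where the median of all probes was 0.01. Alas1, the first enzyme of heme synthesis, was lower by a log2 value of -0.36 ± 0.09 (adjusted p = 0.0225), and Ces2h, a carboxylesterase, by -0.80 ± 0.22 (adjusted p = 0.0397). Against medium 2 members were higher, Por and the retinal dehydrogenase Aldh1a1 (0.45 ± 0.12, adjusted p = 0.0475), and 1 was lower, Cyp3a9, with a median of 0.22. Medium without rifampin was itself lower than DMSO at 6 of the 11 probes and higher at 1, with a median of -0.67. Over 15 alternative settings, most of them with 1 well left out, the call of Alas1 was lost in 3, of Ces2h in 9 and of Aldh1a1 in 8 (largest adjusted p = 0.385, 0.191 and 0.214). That of Por against medium with both concentrations was lost without the first or the third medium well (0.0638).

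Of 22 phase II probes tested, which stand for conjugating enzymes, 0 were higher and 4 lower than with DMSO, with a median of -0.38; 2.32% of all probes were lower. In the same list medium without rifampin was lower than DMSO at 9 probes and higher at 0, with a median of -0.365. The rifampin wells had 1 probe higher than with medium, with a median of 0.15. Those below DMSO included 2 of the probes of Sult2a2, a hydroxysteroid sulfotransferase with near-identical paralogs (-1.82 ± 0.43, adjusted p = 0.0129, and -1.76 ± 0.47, adjusted p = 0.0486), and the phenol sulfotransferase Sult1b1 (-1.07 ± 0.25, adjusted p = 0.0209). The calls against DMSO were lost in 1 and 10 of 15 alternative settings for the Sult2a2 probes and in 4 for Sult1b1 (largest adjusted p = 0.197, 0.281 and 0.149). The glucuronide pump Abcc2 stood at 144, 147 and 134 CPM at 20 µM and 78.0, 136 and 103 CPM at 40 µM, against 108, 116 and 110 CPM with DMSO and 123, 113 and 140 CPM with medium. Its 20 µM wells were above every DMSO well, but the difference of 0.31 ± 0.19 did not pass the test (adjusted p = 0.579). Among 7 transporter probes tested, 1 was lower than with DMSO, the anion transporter Slco1a1 (-1.34, adjusted p = 0.0312, lost in 6 of 15 settings), and 1 was lower than with medium. In the list of lipid and growth genes linked to these receptors, Thrsp, a lipogenic regulator, was the 1 of 13 probes lower than with DMSO (-1.40 ± 0.26, adjusted p = 0.00356; 0.0542 without the first DMSO well), and the desaturase Scd2 the 1 lower than with medium (-0.46, adjusted p = 0.00207). Medium without rifampin was higher than DMSO at 2 transporter probes and lower at 0. Among the lipid and growth genes it was higher at 1 and lower at 3.

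The receptor itself was lower than with the solvent, both with rifampin and in the medium wells without it. Nr1i2 stood at 115, 108 and 86.1 CPM with DMSO, 63.6, 59.5 and 47.7 CPM with medium, 75.2, 74.3 and 56.9 CPM at 20 µM, and 75.6, 76.4 and 74.5 CPM at 40 µM. All 6 rifampin wells were below the DMSO wells, and those at 40 µM above the medium wells. The log2 difference was -0.58 ± 0.12 from DMSO (adjusted p = 0.00646; 0.0833 without the first DMSO well) and 0.32 ± 0.13 from medium (adjusted p = 0.256). Rxra, the retinoid X receptor partner, was lower than with DMSO by a log2 value of -0.36 ± 0.09 (adjusted p = 0.0168; 0.107 at most without the first or second DMSO well). Of 26 probes tested in the receptor list, Nr1i2 and Rxra were the 2 called against DMSO, and 0 were called against medium. Over all probes, 2.32% were lower than with DMSO. Medium without rifampin was lower than DMSO at 5 of the 26 receptor probes and higher at 0. Nr1i3, the gene of CAR, stood at no more than 0.73 CPM in any well, near the floor, so that a change in it was not detectable at this depth.

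Probes that rifampin moved away from both controls in the same direction were few. For the mean of both concentrations 9 probes (0.0744% of those tested) were called against DMSO and against medium with the same sign, 3 higher and 6 lower. They made up 2.14% of the calls against DMSO and 3.9% of those against medium. Called with opposite signs, and so lying between the controls, were 35 (0.289%): 27 above medium and below DMSO, and 8 the reverse. By library ranges, all 6 rifampin wells lay outside both controls on the same side at 0.76% of probes and between them at 0.62%. For comparison, the ranges of the 6 rifampin wells and the 3 control wells did not overlap at 9.11% of probes against DMSO and at 7.71% against medium. With 3 wells against 3 such separation was more frequent, at 22.5% (20 µM) and 19.5% (40 µM) against DMSO and at 17.7% and 22.8% against medium.

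Acsm2, a mitochondrial medium-chain acyl-CoA synthetase, had the smallest adjusted p of the 9 against each control. Its first probe stood at 59.6, 69.8 and 58.6 CPM at 20 µM and 61.8, 55.3 and 55.5 CPM at 40 µM, against 79.9, 85.3 and 73.0 CPM with DMSO and 95.0, 86.9 and 88.6 CPM with medium. No rifampin well overlapped a control well. The log2 difference was -0.47 ± 0.08 from DMSO (adjusted p = 0.000565) and -0.61 ± 0.08 from medium (adjusted p = 2.78e-05), and both calls were kept in all 15 alternative settings. A second Acsm2 probe was lower too, by -0.38 ± 0.10 (adjusted p = 0.0192, lost in 4 of 15 settings) and -0.47 ± 0.10 (adjusted p = 0.00695; 0.0716 without the first medium well). Both probes report on the same gene.

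Of the other members lowered against both controls, Uroc1, urocanate hydratase of histidine breakdown, stood at 30, 27.5 and 21.2 CPM at 20 µM and 20.7, 26.1 and 22.3 CPM at 40 µM. Its control wells ran from 34.2 to 39.1 CPM, and the differences were -0.62 ± 0.14 from DMSO (adjusted p = 0.00754) and -0.60 ± 0.14 from medium (adjusted p = 0.0148). Akr7a3, an aflatoxin aldehyde reductase that is a target of the stress regulator NRF2, stood at 57.5, 49.7 and 54.3 CPM at 20 µM and 38.3, 54.6 and 32.1 CPM at 40 µM, below all control wells, which ran from 59.9 to 68.7 CPM. Its difference was -0.51 ± 0.11 from each control (adjusted p = 0.00605 and 0.00919). The calls of Uroc1 and Akr7a3 against medium were each lost without either of 2 medium wells (largest adjusted p = 0.101 and 0.0658), and those against DMSO without the second (0.0563) and the first DMSO well (0.0685).

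Thbs1 stood higher in every rifampin well than in any control well. Thbs1, the matrix glycoprotein thrombospondin, stood at 1863, 1874 and 1757 CPM at 20 µM and 1806, 1642 and 1840 CPM at 40 µM, above control wells from 1212 to 1558 CPM. Its differences of 0.33 ± 0.09 and 0.41 ± 0.09 were called (adjusted p = 0.0274 and 0.00809), but the first was lost in 6 and the second in 2 of 15 alternative settings (largest adjusted p = 0.24 and 0.092). LOC103694877 was lower by -0.31 and -0.33. Tmem123 (higher by 0.31 against each) and C8a (lower by -0.29 and -0.27) were also among the 9 and were named after their values were seen; each of these 3 lost its calls in several settings.

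**Figure D2:**
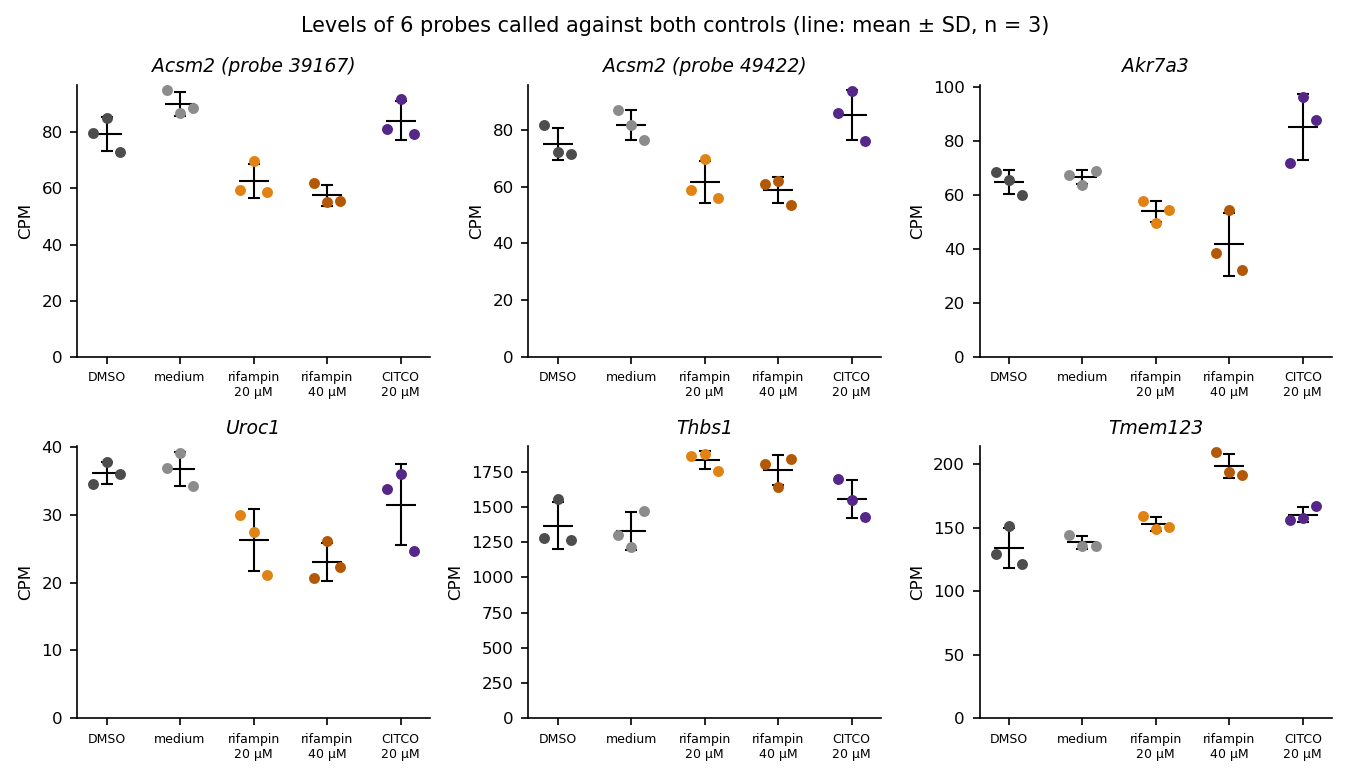
Levels (CPM, linear axes from 0) of 6 probes called with the same sign against DMSO and against medium, in each well of 5 groups; points are wells and lines the mean ± SD of 3. Both Acsm2 probes, Akr7a3 and Uroc1 are lower and Thbs1 higher with rifampin than in every control well. For Tmem123 the 20 µM wells overlap the DMSO wells, and all rifampin wells lie above the medium wells.

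At 20 µM alone, 2 probes were called with the same sign against both controls (0.0165%), Acsm2 lower and Thbs1 higher, and 5 with opposite signs (0.0413%). At 40 µM alone there were 24 (0.198%), 8 higher and 16 lower, with Cyp3a9 among the latter. Called with opposite signs were 15 (0.124%). Without the second DMSO well there were 7 of the same sign. Hao1, a peroxisomal glycolate oxidase, was lower by -1.02 ± 0.21 and -0.74 ± 0.21 (adjusted p = 0.00688 and 0.0492). Slc7a11, the cystine importer, was lower by -1.01 ± 0.25 and -1.16 ± 0.25 (adjusted p = 0.027 and 0.00609), at levels of 2.41 to 4.32 CPM. Hspa8, a constitutive heat shock protein, stood at 6344, 6636 and 6805 CPM, below all control wells (7624 to 8525 CPM), and Cryab, a small heat shock protein, at 336, 298 and 303 CPM, above all control wells (210 to 233 CPM). Their differences from DMSO and medium were -0.37 ± 0.09 and -0.38 ± 0.09 for Hspa8 and 0.38 ± 0.08 and 0.47 ± 0.08 for Cryab. Over 12 alternative settings, 6 of them with 1 well left out, the calls against DMSO were lost in 1 (Hao1), 6 (Slc7a11), 6 (Hspa8) and 2 (Cryab), and those against medium in 8, 1, 3 and 0. Hao1, Hspa8 and Cryab were named after their values were seen.

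Between the 2 concentrations edgeR called 0 of 12102 probes (0%), with 1105 at an unadjusted p under 0.05 (9.13%); DESeq2 called 38. The smallest adjusted p, 0.0816, was that of Mt2A, a metallothionein, one of the small cysteine-rich proteins that bind zinc and copper. Mt2A stood at 38.8, 32.3 and 43.2 CPM at 20 µM and 97.4, 65.5 and 67.6 CPM at 40 µM, with DMSO wells at 69.1, 61.1 and 58.5 CPM and medium wells at 26.3, 25.6 and 15.6 CPM. The 20 µM wells lay between the controls and the 40 µM wells overlapped DMSO. The log2 difference was -0.77 ± 0.17 from DMSO at 20 µM (adjusted p = 0.012), 0.20 ± 0.17 from DMSO at 40 µM (adjusted p = 0.673) and 1.72 ± 0.18 from medium at 40 µM (adjusted p = 4.17e-06). Between the concentrations it was 0.97 ± 0.17.

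Mt1, the neighbouring metallothionein gene, likewise averaged lowest with medium and higher at 40 µM than at 20 µM, but among the DMSO, medium and rifampin groups its highest mean was that of DMSO. Its stronger probe stood at 500.4, 531 and 465 CPM at 20 µM, 933, 774 and 756 CPM at 40 µM, 923, 855 and 798 CPM with DMSO and 424, 431 and 230.1 CPM with medium. It was called lower than DMSO at 20 µM (-0.83 ± 0.19, adjusted p = 0.0203) and higher than medium at 40 µM (1.14 ± 0.19, adjusted p = 0.00224). Of 6 probes tested in the metallothionein and zinc list, 4 were lower than DMSO at 20 µM and 0 at 40 µM, while 0 exceeded medium at 20 µM and 4 did at 40 µM; the difference between the concentrations was positive for all 6 and called for 0. Both metallothionein promoters carry several copies of the core of the metal response element, TGCACNC or TGCGCNC on either strand. They are shown because Mt2A had the smallest adjusted p between the concentrations and Mt1 is its neighbour. Capitals mark each core, on the gene's strand (minus in both) in GRCr8.
Mt1, chr19:10833016-10833159: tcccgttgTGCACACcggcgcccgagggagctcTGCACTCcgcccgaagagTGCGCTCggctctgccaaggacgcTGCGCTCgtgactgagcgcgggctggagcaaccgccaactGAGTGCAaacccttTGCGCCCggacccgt
Mt2A, chr19:10838749-10838936: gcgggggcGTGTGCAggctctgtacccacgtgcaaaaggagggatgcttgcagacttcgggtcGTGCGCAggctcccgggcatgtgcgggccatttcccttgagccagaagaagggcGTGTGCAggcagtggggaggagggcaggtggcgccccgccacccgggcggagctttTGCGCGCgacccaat
Mt1 held 6 cores and Mt2A 4, where 24.2% of promoters held at least 1 and 147 of 33469 (0.439%) at least 4.

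Fibrinogen genes were among those that lay between the 2 controls. Fgg, the gamma chain of fibrinogen, stood at 8979, 8991 and 8014 CPM with DMSO, 4605, 4709 and 3618 CPM at 20 µM, 5640, 5904 and 5677 CPM at 40 µM and 3024, 3368 and 2304 CPM with medium. No rifampin well overlapped either control. With both concentrations together it was -0.86 ± 0.09 from DMSO (adjusted p = 4.31e-06) and 0.76 ± 0.10 from medium (adjusted p = 4.96e-05). Fga and Fgb, the alpha and beta chains, were placed alike, at -0.95 ± 0.14 and -0.87 ± 0.16 from DMSO and 0.96 ± 0.15 and 0.83 ± 0.17 from medium, all called. Cxcl10, a chemokine induced by interferon, stood at 47.2, 43.9 and 40.5 CPM with DMSO, 12.99, 16.0 and 9.08 CPM at 20 µM, 20.7, 18.4 and 17.9 CPM at 40 µM and 7.08, 8.52 and 7.97 CPM with medium. It too was separated from both controls (-1.56 ± 0.16, adjusted p = 5.29e-07, and 0.96 ± 0.19, adjusted p = 0.00419).

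Cyp4a1, a fatty acid hydroxylase driven by PPARα, stood at 51.6, 49.4 and 52.5 CPM with DMSO, 21.7, 24.9 and 21.8 CPM at 20 µM, 36.9, 41.2 and 30.5 CPM at 40 µM and 9.16, 11.9 and 7.17 CPM with medium. It was the gene furthest above medium with both concentrations together among those named by level and separation (1.59 ± 0.24, adjusted p = 0.00102), and was below DMSO by -0.90 ± 0.19 (adjusted p = 0.0101). Hdc, the histamine-forming decarboxylase, was furthest below DMSO by the same rule and stood at 16.1, 21.5 and 24.2 CPM with DMSO, 4.81, 8.23 and 2.21 CPM at 20 µM, 6.32, 8.55 and 3.62 CPM at 40 µM and 2.67, 2.00 and 2.16 CPM with medium. Its differences were -1.94 ± 0.26 from DMSO (adjusted p = 5.39e-05) and 1.27 ± 0.34 from medium (adjusted p = 0.0487).

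**Figure D3:**
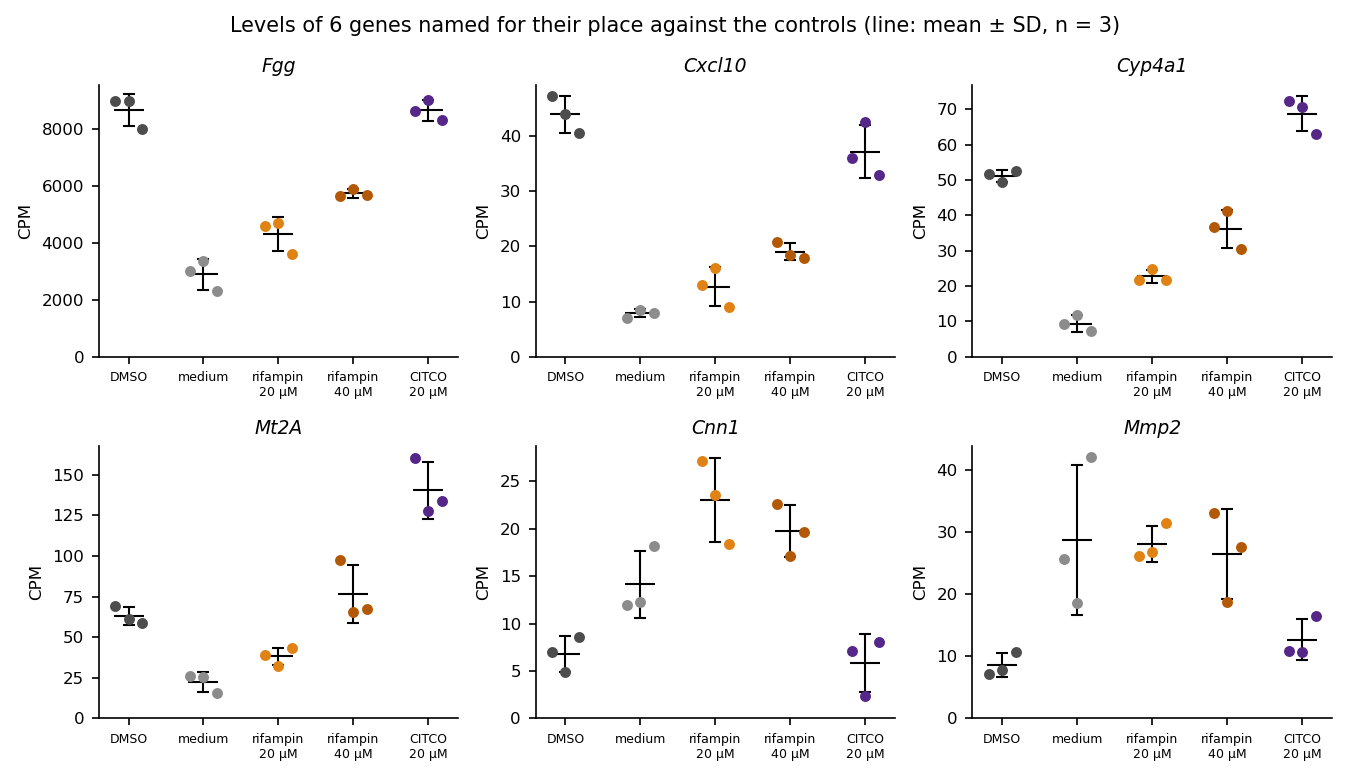
Levels (CPM, linear axes from 0) of 6 genes in each well of 5 groups; points are wells and lines the mean ± SD of 3. Every rifampin well lies between the DMSO and the medium wells for Fgg, Cxcl10 and Cyp4a1, Mt2A reaches the DMSO wells at 40 µM, and for Cnn1 and Mmp2 the rifampin wells lie above DMSO and those at 40 µM overlap the medium wells.

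Liver-secreted and metabolic genes were lower than with DMSO at many probes; in such bulk samples fewer cells of a type and less RNA per cell cannot be told apart. Of 30 probes for hepatocyte identity and secreted proteins, 17 were lower and 0 higher (median -0.63), led by the methyltransferase Bhmt (-1.71 ± 0.27), the urea cycle enzymes Cps1 (-1.54 ± 0.40, a call lost in 7 of 15 settings) and Otc (-1.25 ± 0.17) and the iron hormone Hamp (-1.28 ± 0.20). Of 25 coagulation probes, 14 were lower and 1 higher (median -0.61), with plasminogen, Plg, at -1.58 ± 0.34 (lost in 3 of 15 settings, largest adjusted p = 0.102). Of 38 acute phase and complement probes, 17 were lower and 1 higher (median -0.39), led by C4bpb (-1.45 ± 0.17), Serpina3m (-1.41 ± 0.24) and haptoglobin, Hp (-1.18 ± 0.24). Over all probes tested, 2.32% were lower than with DMSO. Medium without rifampin was also lower than DMSO, at 19, 14 and 20 probes of these lists (medians -0.75, -0.76 and -0.61), and higher at 0, 1 and 1. Against medium the rifampin wells had 2, 6 and 4 probes of these lists higher and 0, 0 and 1 lower. Alb itself, used above as the check of cell type, was -0.70 ± 0.11 from DMSO (adjusted p = 0.000272) and -0.04 ± 0.11 from medium (adjusted p = 0.918).

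Of 32 PPARα target probes, 13 were lower than with DMSO and 0 higher, and 2 were higher than with medium, Cyp4a1 and the acyl-CoA dehydrogenase Acadvl. Medium without rifampin was lower than DMSO at 20 of them and higher at 0. The liver fatty acid binding protein Fabp1 was lower than DMSO by -1.51 ± 0.25 and the thiolase Acaa2 by -0.60 ± 0.15; Cyp4a2, a near copy of Cyp4a1 whose detectors may share signal, was lower by -0.98 ± 0.23. Among 21 chemokine and NF-κB probes, 6 were lower and 1 higher than with DMSO, and with medium alone 12 were lower and 1 higher. The chemokines Ccl20 (-1.41 ± 0.21), Cxcl9 (-1.30 ± 0.23) and Cxcl11 (-1.12 ± 0.20) fell beside Cxcl10.

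Genes of the actin cytoskeleton and of serum response factor (SRF) lay on the other side of DMSO. Of 34 probes tested, 18 were higher than with DMSO and 1 lower, with a median of 0.37, where 1.15% of all probes were higher. Medium without rifampin had the same counts against DMSO, 18 higher and 1 lower, with a median of 0.43. Cnn1, the contractile regulator calponin, stood at 6.99, 4.84 and 8.59 CPM with DMSO, 11.95, 12.3 and 18.2 CPM with medium, 27.2, 23.6 and 18.4 CPM at 20 µM and 22.6, 17.1 and 19.6 CPM at 40 µM. All rifampin wells were above DMSO and the 40 µM wells overlapped medium; the differences were 1.58 ± 0.30 from DMSO (adjusted p = 0.00279) and 0.57 ± 0.27 from medium (adjusted p = 0.378). Nexn (1.41 ± 0.25), Fblim1 (1.33 ± 0.24), Acta1 (1.21 ± 0.18) and Tagln (1.20 ± 0.22), which encode actin or proteins of actin structures, were higher than DMSO as well. The 1 lower probe was Egr1, an immediate early transcription factor, which was below DMSO (-0.63 ± 0.13) and above medium (0.86 ± 0.14). Against medium the list had 1 higher and 3 lower probes and a median of -0.02. Mmp2, a collagen-degrading matrix enzyme, stood at 7.10, 7.83 and 10.7 CPM with DMSO, 25.6, 18.5 and 42.0 CPM with medium, 26.1, 26.7 and 31.4 CPM at 20 µM and 33.0, 18.6 and 27.6 CPM at 40 µM. It was higher than DMSO by 1.60 ± 0.23 (adjusted p = 8.85e-05) and overlapped medium (-0.10 ± 0.20, adjusted p = 0.884).

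Against medium the lower genes included filament and amino acid response genes. The intestinal galectin Lgals4 was lower by -1.72 ± 0.31 (adjusted p = 0.0541 without the third medium well), the keratin Krt19 by -0.88 ± 0.20 (at most 0.12 with a medium well left out), the neurofilament Nefm by -1.22 ± 0.21 and the laminin chain Lamb3 by -0.95 ± 0.13. In the list of matrix and adhesion genes, 2 of 29 probes were lower than medium and 2 higher, with a median of -0.04. Of 22 probes in the list of intermediate filaments and dedifferentiation, 6 were lower than medium and 0 higher, and 5 were higher than DMSO and 0 lower. Of 33 probes of the ATF4 and amino acid response, 5 were lower than medium (Slc7a11, Trib3, Cth, Ddit3 and Eif4ebp1) and 0 higher, and 2 were higher than DMSO. Over all probes, 1.04% were lower with rifampin than with medium. Medium without rifampin was higher than DMSO at 15 of these 33 probes and at 9 of the 22 filament probes, and lower at 0 of either list. Trib3, a pseudokinase induced by ATF4, stood at 59.0, 68.7 and 68.4 CPM with medium, 45.2, 43.1 and 44.5 CPM at 20 µM, 41.6, 35.3 and 33.8 CPM at 40 µM and 31.1, 33.3 and 36.1 CPM with DMSO. Every rifampin well was below every medium well, by -0.72 ± 0.10 (adjusted p = 4.96e-05), and the 40 µM wells overlapped DMSO.

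**Figure D4:**
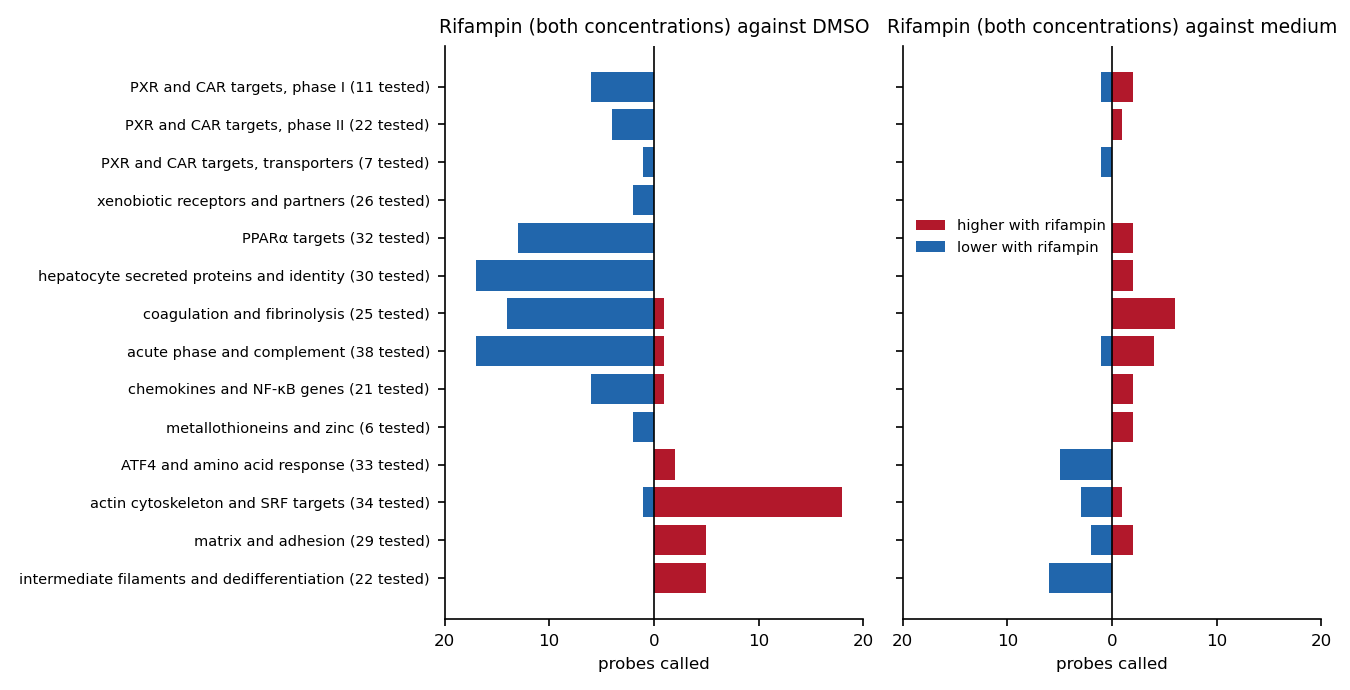
Number of probes called higher (right) and lower (left) in the mean of both rifampin concentrations, against DMSO and against medium, for 14 gene lists; the number tested stands beside each name. Against DMSO the actin list has 18 probes higher and the hepatocyte list 17 lower, and against medium no list has more than 6 in a direction.

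To place whole libraries between the controls, a score was made from 200 probes that separate DMSO from medium in the other set of the series, 100 in each direction, and scaled so that the medium wells of the rifampin plate averaged 0% and the DMSO wells 100%. The rifampin wells scored 44.0, 42.7 and 13.8% at 20 µM and 3.42, 54.7 and 46.1% at 40 µM. Their mean was 33.5% ± 17.1 (SD, n = 3) at 20 µM, 34.7% ± 27.5 at 40 µM and 34.1% ± 20.5 over all 6. All 6 lay below every DMSO well (70.3 to 124%) and 5 of 6 above every medium well (-25.1 to 12.6%). The lowest rifampin well of each concentration stood in an outer plate column, 12 at 20 µM and 1 at 40 µM. The lowest DMSO, medium, CITCO 20 µM, benzo[a]pyrene and WY-14643 wells also stood in one. The lowest well of CITCO 10 µM (49.7%) stood in column 11. The lowest well of all, with 0.3 mM nitroethane (-37.9%), stood in column 9, but the scored wells of nitromethane and nitroethane occupied columns 4 to 9 only. Without the wells of columns 1 and 12 the means were 30.1% at 20 µM and 37.0% at 40 µM. Wells with low concentrations of nitromethane and nitroethane averaged -9.21% in row A, 30.4% in row B, 34.6% in row C and 19.6% in row D. In row E, which also held rifampin at 20 µM (33.5%), they averaged 10.1% ± 30.2 (SD, n = 6). Row H, with rifampin at 40 µM (34.7%), held none of these wells. The part of plate position and of solvent in the rifampin values was not tested. Of the 100 score probes higher in DMSO, 77 had a rifampin mean between the controls, 47 were called lower than DMSO and 14 higher than medium. Of the 100 higher in medium, 62 lay between, 23 were called higher than DMSO and 18 lower than medium. Over all tested probes 45.4% lay between.

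**Figure D5:**
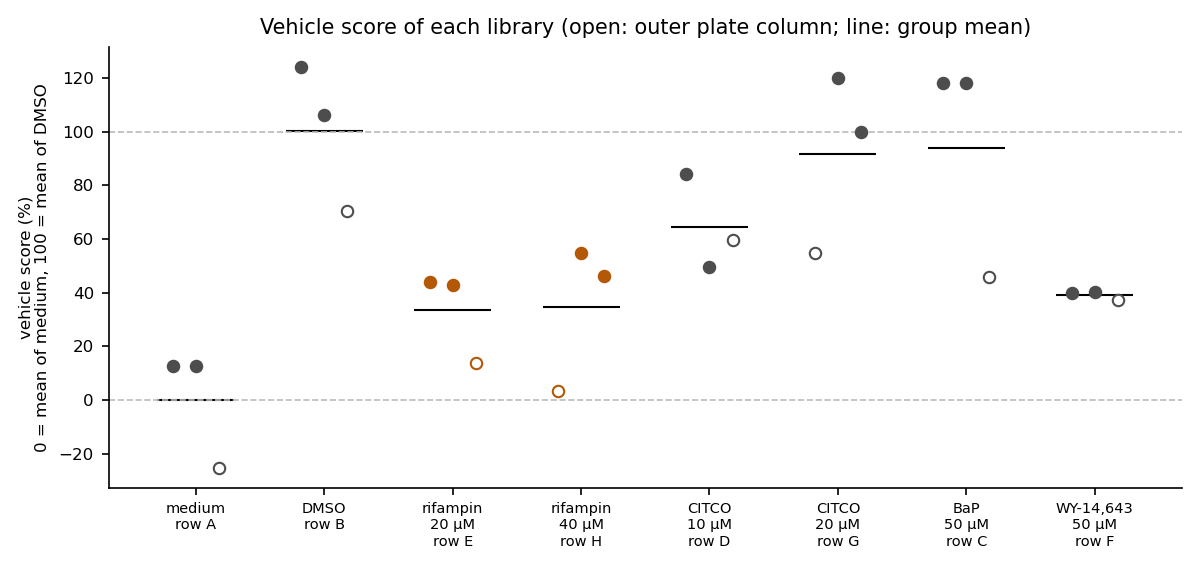
Score of each well (percent, 0 the mean of medium and 100 the mean of DMSO) for 8 groups with their plate rows; open symbols are wells in plate columns 1 or 12 and lines are group means. The 6 rifampin wells (orange) lie at 3.42 to 54.7%, below every DMSO well, and the open symbol is the lowest of each rifampin group.

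Other gene lists had fewer calls. Over all probes, 2.32% were lower and 1.15% higher than with DMSO, and 1.04% lower and 0.868% higher than with medium. Of 27 NRF2 target probes, 5 were lower and 1 higher than DMSO, with heme oxygenase, Hmox1, at -0.59 ± 0.08 (adjusted p = 7.06e-05) and the glutathione peroxidase Gpx2 at 0.57 ± 0.09 (adjusted p = 0.000179), and 3 were lower and 1 higher than medium. Among 7 targets of the aryl hydrocarbon receptor, Aldh3a1, an aldehyde dehydrogenase, was the 1 called, lower than DMSO by -1.12. Cyp1a1, the standard marker of that receptor, stood at 7.68 to 18.5 CPM with rifampin and was called against neither control. Of 16 other P450 probes, 4 were lower than DMSO (Cyp2d1, Cyp2d5, Cyp2c11 and Cyp2c24, members of families with close paralogs) and 0 were called against medium. Of 21 cholesterol synthesis probes, 4 were lower than DMSO, among them the synthase Hmgcs1 (-0.61 ± 0.17). In the list of 22 cell cycle probes 0 were called against DMSO, and 1, the proliferation marker Mki67, was higher than medium (0.74 ± 0.17, adjusted p = 0.0128). Medium without rifampin was lower than DMSO at 5 NRF2, 1 aryl hydrocarbon receptor, 2 other P450, 3 cholesterol and 0 cell cycle probes. In the same order it was higher at 4, 1, 0, 0 and 0.

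Against CITCO at the same concentration, rifampin at 20 µM differed at 1256 probes (10.4%), 650 higher (5.37%) and 606 lower (5.01%). Furthest below CITCO were LOC100910877 (-4.77) and AABR07035374.1 (-4.51), symbols without an assigned function here, followed by the glutathione transferase Gsta2. Gsta2 stood at 15, 15.1 and 11.9 CPM with 20 µM rifampin and at 101, 161 and 202 CPM with CITCO. All rifampin wells lay far below, with a log2 difference of -3.48 ± 0.23 (adjusted p = 2.45e-08), and the paralog Gsta5 was at -3.13. For Gsta2 rifampin overlapped neither the CITCO wells nor, at 20 µM, the DMSO wells (18.3 to 22.5 CPM), from which it did not differ by the test (-0.54 ± 0.24, adjusted p = 0.359). Por and Ephx1 were lower with rifampin than with CITCO by -1.19 ± 0.09 (adjusted p = 5.52e-10) and -0.95 ± 0.09 (adjusted p = 5.41e-08). Cyp3a9 did not differ by the test (0.41 ± 0.16, adjusted p = 0.119), with CITCO wells at 8.61, 10.4 and 12.3 CPM. Of the PXR and CAR lists, 0 of 11 phase I and 0 of 22 phase II probes were higher with rifampin than with CITCO, and 4 and 10 were lower. Of the 7 transporter probes 2 were higher and 1 lower, and of the 13 probes of lipid and growth genes 1 was higher and 4 lower. Actin and SRF genes were higher with rifampin at 22 of 34 probes and lower at 2, and cell cycle genes were higher at 10 of 22 and lower at 0. Havcr1, an injury marker of kidney epithelium, was higher with rifampin by 2.30 and the matrix protein Tnc by 2.15. The 2 groups stood in different plate rows and columns, and the part of position in these differences was not tested.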

How the data were processed

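The deposited table gives raw counts, 22253 probes by 105 libraries in 35 groups of 3, with no normalization. Per the labels the detector panel is a human one, but 15986 of its 20946 symbols match a rat gene list (GRCr8). Per the submitters' processing notes the tools were FastQC, Bowtie, R 3.5.3 and DESeq2 1.28.1, without roles; the build is not given in the sources used here. Rifampin is named in the labels and not in the protocol text.

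Counts were fitted with edgeR 4.0.16 in R 4.3.3: TMM scaling, filterByExpr (minimum count 10, total 15), a robust quasi-likelihood fit over 24 libraries in 8 groups (the controls and reference compounds of the rifampin plate), and Benjamini-Hochberg adjustment over 12102 probes. The pooled value is the mean of the 20 and 40 µM coefficients. The SE is the log2 difference divided by the root of F. The score uses log2(CPM + 1) and probes chosen in 9 libraries of the other set. Alternatives were DESeq2 1.42.0, its size factors, no filter, only the compared groups, a replicate block, each well left out, and, chosen after seeing the data, no wells of columns 1 and 12. The scripts were tested on simulated counts.

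Genes were named by rule: for each comparison, called probes of at least 10 CPM with no overlap between the groups' wells, the 10 (both concentrations together) or 5 of largest change in each direction; up to 12 in each direction for both controls; any probe of the PXR, CAR and receptor lists; and up to 4 called members of each of the other lists (35 lists in all, 6 of them for other cell types). The lists and the groups to compare were chosen with earlier results of these data known. Replicate numbers did not pair the wells (correlation of same-number deviations -0.168 to 0.108). No 2 wells of a group were copies. The first 40 µM well had the fewest counts of the 12 control and rifampin libraries (6809360). Its median correlation with its own group was also the lowest of them (0.976, where the highest was 0.984). CITCO at 10 µM, benzo[a]pyrene, WY-14643 and nitroalkane wells entered the fit or the score only, and other libraries were not analysed here. Values of some genes are not reported here.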

Additional observations from a re-analysis of the deposited data

How the results depend on the processing

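Several counts of called probes moved by over 1.5 times with the settings. Without the filter on low counts they were 531 (20 µM) and 499 (40 µM) against DMSO, 130, 674 and 416 (20 µM, 40 µM, both) against medium, 149 between the concentrations, and 17, 89 and 30 (20 µM, 40 µM, both) against both controls. With DESeq2 they were 329 at 40 µM against DMSO, 60 at 20 µM against medium, 38 between the concentrations, and 44 (40 µM) and 17 (both) against both controls. With only the compared groups they were 56, 642 and 366 against medium, 28 between the concentrations, and 6, 37 and 17 against both controls. With the replicate block, which pairs wells by a shared number only, they were 10 between the concentrations, and 4 (20 µM) and 14 (both) against both controls; the other counts stayed within 1.5 times. Without plate columns 1 and 12, a choice made after seeing the data, they were 364 at 40 µM against DMSO, 111 (20 µM) and 419 (both) against medium, 10 between the concentrations, and 14, 48 and 26 against both controls. The cause of these shifts was not tested.

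Leaving out 1 well gave 107 (without the third 20 µM well) to 283 at 20 µM, 79 (without the first 40 µM well) to 192 at 40 µM and 141 (without the first DMSO well) to 427 for both against DMSO. Against medium it gave 3 (without the second 20 µM well) to 19, 203 (without the first medium well) to 291, and 87 (without the third medium well) to 213. Between the concentrations it gave 0 to 1, against CITCO 702 (without the third 20 µM well) to 1094, and against both controls 0 to 2, 7 to 24 and 2 (without the first medium well) to 12. The mean score ran from 24.7 to 40.3%. Of 196 named results, 87 were called in every alternative, 109 lost the call in at least 1, mostly with a well left out, and 0 reversed. Depth limited Cyp2b1 and Nr1i3, at or near the floor in all wells.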
